A study of Solanum lycopersicum with 40 samples.

Results

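The change that a phosphatase transgene brought to the transcriptome of tomato leaf was set against the change it brought in ripe fruit. The plants were Solanum lycopersicum cv Micro-Tom, a dwarf tomato. Lines N6 and N7 carry an InsP 5-ptase transgene, and their controls were the wild type, WT, and plants with a vector control, VC. The comparison used 28 of the 40 arrays of the series, namely all 12 leaf arrays, 3 for each of WT, VC, N6 and N7, and all 16 fruit arrays, 4 for each. Leaf RNA came from the first pair of leaves of seedlings grown for 10 days in the light on agar medium, and fruit RNA from ripe fruit of potted plants kept for 9 weeks in a growth chamber. No group had a further treatment. The promoter that drives the transgene, and whether N6 and N7 arose from separate transformation events, are not stated in the labels. The fruit titles call the replicates biological, while nothing says that the leaf replicates came from separate plants, so the spread between leaf samples may be technical. The p-values of both tissues rest on a shared estimate of spread per probe set, from leaf and fruit arrays together. The leaf p-values therefore do not measure the spread of the leaf samples alone.

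InsP 5-ptase, an inositol polyphosphate 5-phosphatase, removes a phosphate from soluble inositol phosphates, among them the messenger that is known for releasing calcium from stores inside the cell. Calcium signals feed into the responses of plants to pathogens, wounding, drought and hormones. Ethylene, the gaseous hormone behind the ripening of tomato fruit and part of the defence of leaves, binds to membrane receptors that hold the pathway off in its absence. The signal then passes through the membrane protein EIN2 to transcription factors of the EIN3 and EIN3-like family, and from those to ethylene response factors.

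For each of 5597 probe sets, the effect in a tissue was the mean of the N6 and N7 log2 signals minus the mean of the WT and VC log2 signals, and the interaction was the leaf effect minus the fruit effect. Signals under 50 were set to 50 before the log was taken, and that value is called the floor below. A fold counts such arrays at 50, so one whose dimmer group holds them depends on the floor. A probe set was tested if its signal exceeded 50 on at least 3 leaf and at least 4 fruit arrays. An effect was called at a limma adjusted p under 0.05, with adjustment over all 5597 probe sets.

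Some libraries of 1 label differed in control features, and whether they carry the right labels was not tested. The reporter A06498, a control feature of the array, gave signals of 107 to 186 in leaf N6, 250 to 632 in leaf N7 and 237 to 336 in fruit N7, but only 4.76 to 20.3 in fruit N6. The reporter M62653 gave 1198 to 4416 in fruit WT and 5161 in fruit VC 4, against 6.37 to 10.1 in fruit VC 1 to 3. The fruit arrays WT 3 and VC 4 also lay apart from the other fruit controls for many genes named below. Values without them, and values from fruit N7 against fruit VC 1 to 3, are therefore given for some of these genes. The numbers of named genes that kept their calls in these settings are given as well. The tissue labels held for the markers that could be matched, apart from TBG4, whose ranges overlapped between the tissues. Of 4 fruit markers, E8 and PG2 were under the floor on every leaf array. Psy1 and TBG4 were above it there, at 114 to 155 and 106 to 253.3 in leaf controls, against 5012 to 7947 and 252.5 to 493 in fruit controls. In the lines TBG4 was at 161 to 394 in leaf and 290 to 1031 in fruit. Among leaf markers the summed signal of 4 photosynthesis genes (CAB4, CAB6A, PSBO and PSBP) was 28092 to 50314 in leaf controls against 2365 to 5141 in fruit controls. In bulk tissue, fewer cells of a type and less RNA per cell cannot be told apart.

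The transgenic lines differed from the controls in both tissues. The leaf calls numbered 865 of 5597 (15.5%), with a rise at 451 (8.06%) and a fall at 414 (7.4%). The fruit calls numbered 2002 (35.8%), with a rise at 1098 (19.6%) and a fall at 904 (16.2%). The interaction was called for 1477 probe sets (26.4%), of which 744 were more positive in leaf (13.3%) and 733 more positive in fruit (13.1%). Across the probe sets, which are not independent replicates and which were measured on the same arrays, the leaf effect and the fruit effect had a Pearson correlation of −0.0167 and a Spearman correlation of 0.0355. Within a tissue, N6 against VC and N7 against WT, which have no array in common, had Pearson correlations of 0.567 in leaf and 0.767 in fruit.

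Of the leaf calls, 41.6% were also fruit calls, beside 35.8% of all probe sets. Of these 360 probe sets called in both tissues, 190 changed in opposite directions (3.39% of those tested) and 170 changed alike (3.04%). Among the 190, 82 rose in leaf and fell in fruit (1.47%) and 108 fell in leaf and rose in fruit (1.93%). Among the 170, 93 rose in both tissues (1.66%) and 77 fell in both (1.38%). The interaction was called for all 190 opposite probe sets, and for 25 of the 170 alike ones, where it marks a difference in size. A change of over 2-fold in both tissues was seen for 32 opposite and 14 alike probe sets, and 26 of those 32 rose in leaf and fell in fruit. The remaining interaction calls were 329 probe sets called in leaf and not in fruit, 822 called in fruit and not in leaf, and 111 called in neither tissue alone. The median leaf and fruit effects over all probe sets tested were 0.012 and 0.042 on the log2 scale.

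**Figure D1:**
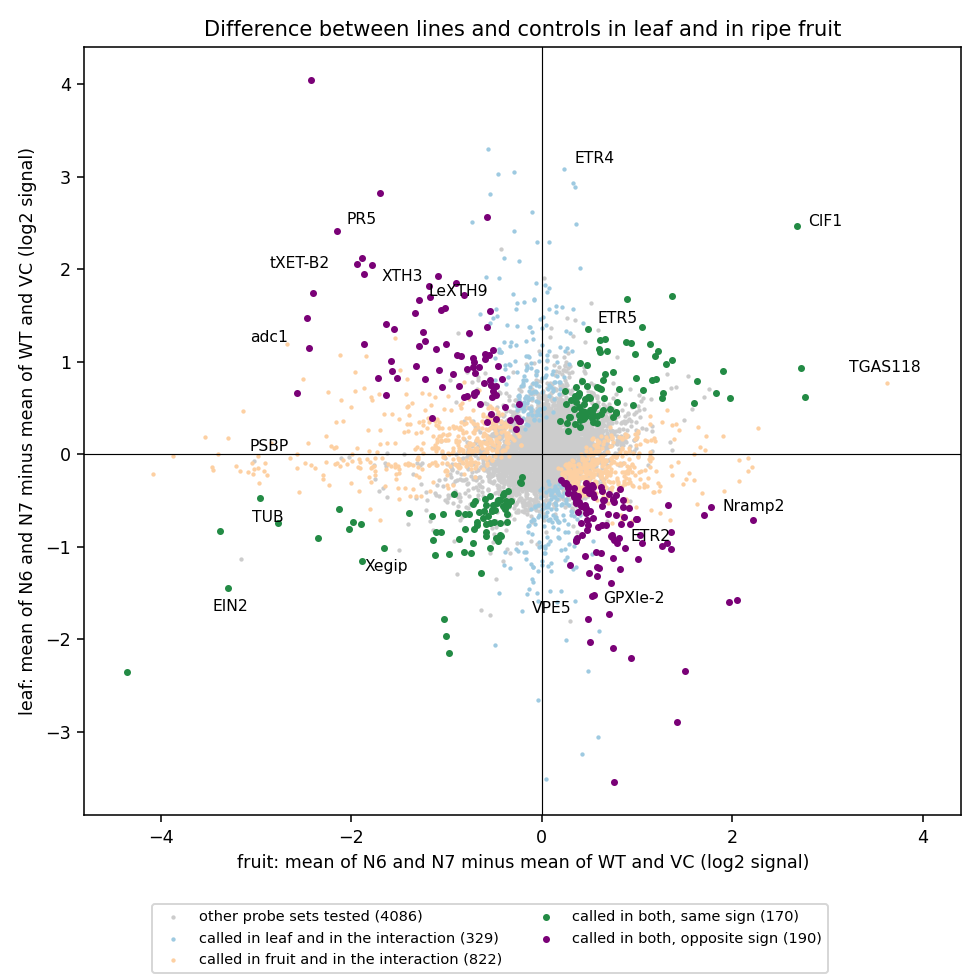
Each point is 1 of 5597 probe sets, with the effect of the lines in fruit on the x axis and in leaf on the y axis, both as log2 differences from the controls. The 190 opposite and 170 alike probe sets are coloured and lie away from both axes, while the cloud as a whole has no slope (Pearson correlation −0.0167).

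A contrast between the control groups gave few calls. It had 3 leaf and 4 fruit arrays on each side, against 6 and 8 for the lines, so it is less precise and its counts are not a matched baseline. VC against WT in the same fit called 1 probe set in leaf (0.0179%), 0 in fruit and 0 for the interaction by limma. At an unadjusted p under 0.05 these counts were 197 (3.52%), 360 (6.43%) and 357 (6.38%). The lines themselves differed from each other at 320 probe sets in leaf (5.72%) and 249 in fruit (4.45%). Of the 190 opposite probe sets, 33 differed between N6 and N7 in leaf and 26 in fruit. In 170 of the 190 and in 156 of the 170 alike probe sets, both lines lay on the same side of both control means in both tissues. Calls from the mean of both lines favour such probe sets, and the share over all probe sets tested was not counted. The 3′ to 5′ signal ratio of the array's control genes, a measure of RNA and labelling quality, had a mean log2 value of 4.44 in leaf lines against 4.82 in leaf controls, and of 3.42 in fruit lines against 3.89 in fruit controls. The fruit medians were 3.34 in lines and 4.19 in controls, where WT 3 at 2.67 and VC 4 at 2.96 had the lowest values. The part of the ratio in the results was not tested beyond a fit that held it as a covariate. In that fit 242 opposite and 221 alike probe sets were called, with 153 of the 190 and 121 of the 170 keeping their class.

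Without fruit WT 3 and VC 4, 332 probe sets were opposite and 380 alike, and 178 of the 190 and 159 of the 170 kept their class. With fruit reduced to N7 against VC 1 to 3, 229 were opposite and 252 alike, and 140 of the 190 and 116 of the 170 kept their class. Only 909 of the array's probe sets carry a gene name here, and 440 named genes were tested. By the brightest probe set of each, 25 of these genes were opposite and 17 alike, and the accounts below rest on 23 opposite and 16 alike genes. Both lines lay on the same side of both control means in both tissues for 20 of the 23 and 15 of the 16, and the exceptions were vis1, ST3, Nramp2 and EIN2, which were taken from the gene lists. The rule for naming genes required this of all but list members, so these numbers do not measure agreement of the lines. With N6 as the only line 11 of the 23 and 10 of the 16 kept both calls, and with N7 as the only line 16 and 8. Without fruit WT 3 and VC 4 the numbers were 23 and 14, and with fruit reduced to N7 against VC 1 to 3, 19 and 10. Of all of these, 15 opposite and 7 alike genes kept their calls in both tissues whichever 1 of the 28 arrays was left out.

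Genes that rose in leaf and fell in fruit included a pathogenesis-related protein, 3 genes for xyloglucan-modifying enzymes, an arginine decarboxylase and a homeobox gene. PR5 is a thaumatin-like protein of the defence against pathogens. Its signal in the 6 leaf controls ran from 414 over a median of 979 to 1949, and in the 6 leaf line arrays from 3988 over 5483 to 7147. In fruit the 8 control arrays ran from 56.4 over 158 to 1880 and the 8 line arrays from 6.26 over 49.0 to 70.7. Every leaf line array lay above every leaf control, whereas in fruit the groups overlapped and 4 of the 8 line arrays were at or under the floor. PR5 rose 5.32-fold in leaf (log2 2.41 ± 0.62 SE, adjusted p = 0.00823, limma) and fell 4.43-fold in fruit (−2.15 ± 0.54, adjusted p = 0.00283), an interaction of 4.56 ± 0.82. The highest fruit controls were WT 3 at 1880 and VC 4 at 1738. Without both of them the fruit effect of PR5 was −1.17 (adjusted p = 7.33e-04), and in N7 against VC 1 to 3 it was −0.88 (adjusted p = 0.088).

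The XTH genes code for xyloglucan endotransglucosylase/hydrolases, which cut and rejoin the xyloglucan chains that tie cellulose fibres together in the cell wall. XTH3 ran from 27.1 over 35.02 to 53.3 in leaf controls and from 75.9 over 232 to 367 in leaf lines. In fruit it ran from 178 over 745 to 1379 in controls and from 131 over 185 to 249 in lines. The leaf groups did not overlap, and in fruit only WT 3 (178) and VC 4 (204) fell within the range of the lines. XTH3 rose 4.13-fold in leaf (2.05 ± 0.39, adjusted p = 5.3e-04), where 5 of 6 controls were at the floor, and fell 3.44-fold in fruit (−1.78 ± 0.34, adjusted p = 2.05e-04). Without WT 3 and VC 4 the fruit effect was −2.36.

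The related tXET-B2 was dimmer. All 6 leaf controls were at the floor, against a range of 29.4 to 644 with a median of 183 in leaf lines, so the rise was at least 4.16-fold (adjusted p = 0.00137). In fruit the controls ran from 49.0 over 277 to 382 and all 8 line arrays were at the floor. The fall of 3.84-fold there (adjusted p = 2.31e-04, limma) also depends on the floor. The leaf rise rested more on N6 (2.95, adjusted p = 3.0e-04) than on N7, which alone gave 1.16 (adjusted p = 0.18). For LeXTH9 the weights of the lines were the other way round. It rose in leaf by 1.67 ± 0.34 (adjusted p = 0.00109) and fell in fruit by 1.29 ± 0.30 (adjusted p = 0.00131), but N6 alone gave 1.12 in leaf (adjusted p = 0.073) and −0.46 in fruit (adjusted p = 0.39), against 2.21 and −2.13 in N7. Of the 19 cell wall genes tested, these 3 were opposite, 1 was alike, 8 in all fell in fruit and 2 rose there. The list had 31.6% called in leaf and 52.6% in fruit, beside 22.5% and 40.9% of all named genes.

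Arginine decarboxylase, adc1, which makes agmatine on one of the routes to the polyamine putrescine, separated lines from controls on every array of both tissues. Leaf controls ran from 741 over 817 to 934 and leaf lines from 1042 over 2050 to 2554. Fruit controls ran from 589 over 734 to 1123 and fruit lines from 79.9 over 144 to 169. The groups did not overlap in either tissue, which held for 12 of the 5597 probe sets with opposite signs (0.214%). adc1 rose 2.23-fold in leaf (1.15 ± 0.20, adjusted p = 1.38e-04) and fell 5.45-fold in fruit (−2.45 ± 0.17, adjusted p = 2.18e-11). Both lines showed it, at 1.23 and 1.08 in leaf and −2.36 and −2.54 in fruit for N6 and N7. A pair of further adc1 probe sets, which may share target sequence with the first, gave 1.47 and 1.74 in leaf and −2.46 and −2.40 in fruit. A second gene of that function on the array, ADC, had effects of −0.06 in leaf, not called, and −0.27 in fruit, called.

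The homeobox gene THOM1 ran from 67.6 over 102 to 144 in leaf controls and from 67.9 over 277 to 296 in leaf lines, and from 99.6 over 163 to 196 in fruit controls and 38.3 over 71.3 to 120 in fruit lines. The groups overlapped in both tissues, in leaf through N7 3 alone, which was at 67.9. THOM1 rose 2.2-fold in leaf (adjusted p = 0.00798) and fell 2.16-fold in fruit (adjusted p = 0.00117), and N7 alone in leaf (0.79, adjusted p = 0.17) and fruit N7 against VC 1 to 3 (−0.96, adjusted p = 0.064) were not called. DDTFR8 rose by 1.01 ± 0.24 in leaf and fell by 1.59 ± 0.21 in fruit, where the median was 700 in lines and 2499 in controls. DDTFR8 was also the single one of 77 probe sets of its direction that was called in root tips, where it fell by 0.76 (adjusted p = 0.027).

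4 more genes of this direction passed the test by less. The small heat shock protein vis1 fell by at least 5.93-fold in fruit, from a control median of 370 to a line median of 19.3, and 7 of the 8 line arrays were at the floor. Its leaf rise of 0.66 (adjusted p = 0.043) came from N7 (1.32), with N6 at the floor level of the controls, and 14 of the 28 single-array removals ended it (0.56 to 0.66, adjusted p 0.051 to 0.13). The MAP kinase kinase MKK2 had effects of 0.62 and −0.53, DXS, the first enzyme of the plastid route to isoprenoids, 0.38 and −0.48, and the 14-3-3 protein TFT7 0.55 and −0.24. Leaving out 1 of 7 arrays ended the leaf call of MKK2 (0.51 to 0.59, adjusted p 0.070 to 0.12) and leaving out fruit VC 2 ended its fruit call (−0.43, adjusted p = 0.053). Likewise 7 removals ended the leaf call of DXS (0.30 to 0.38, adjusted p 0.073 to 0.13) and 10 the fruit call of TFT7 (−0.23 to −0.20, adjusted p 0.054 to 0.083).

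**Figure D2:**
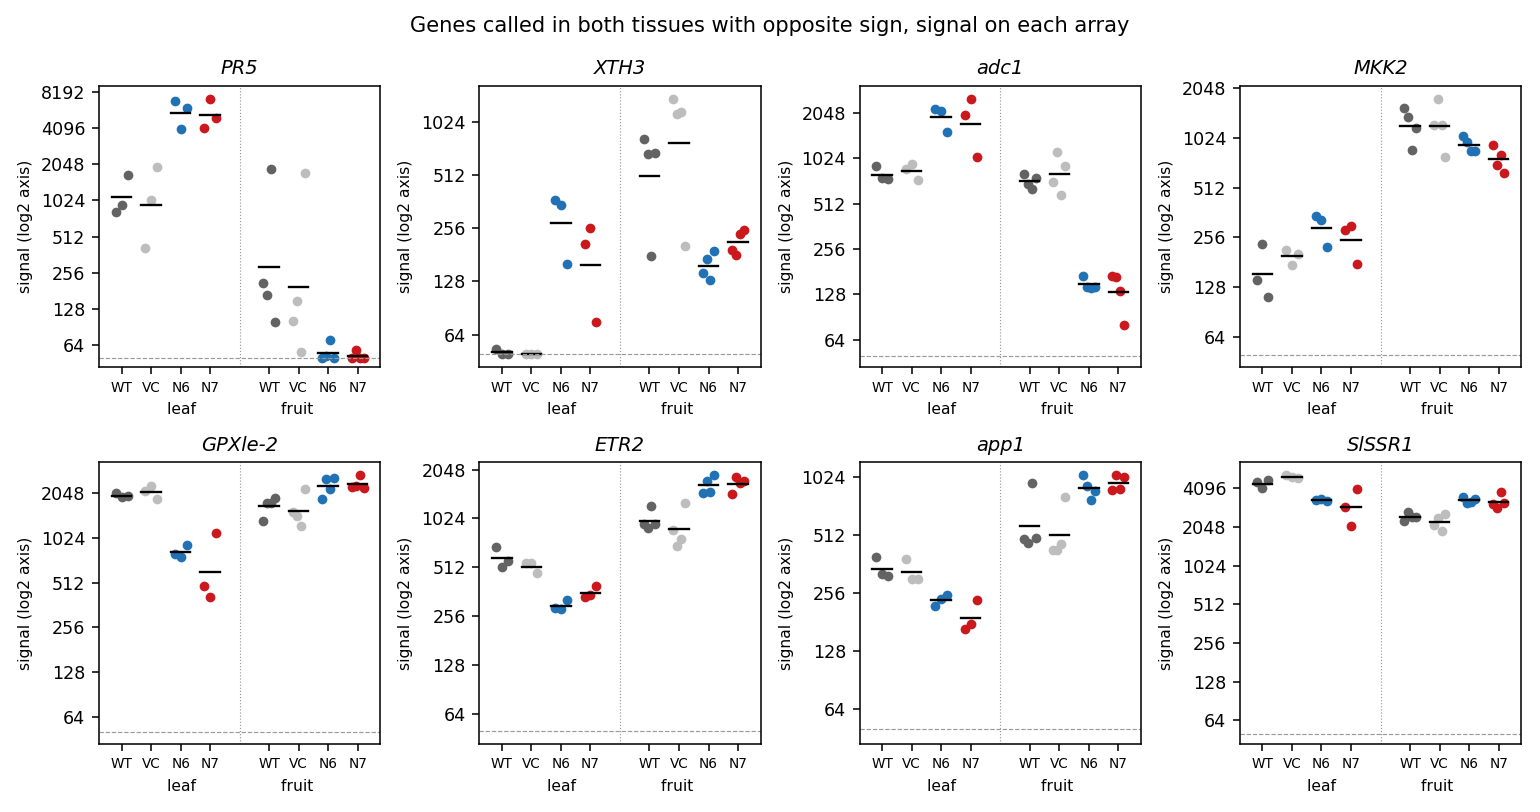
Log2 signal on every leaf and fruit array for 8 genes called in opposite directions, with points for arrays, bars for the mean of the log2 values of a group, and a dashed line at the floor of 50, where lower values are drawn. PR5, XTH3, adc1 and MKK2 are higher in leaf lines and lower in fruit lines, and GPXle-2, ETR2, app1 and SlSSR1 the other way round.

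Genes that fell in leaf and rose in fruit moved by smaller amounts, with a median leaf effect of −0.68 and fruit effect of 0.60 over the 108 probe sets, against 0.96 and −0.83 over the 82 of the other direction. The members were chosen for these signs, so the medians describe size alone. The ethylene receptor gene ETR2 was one of them. It ran from 471 over 541 to 681 in leaf controls and 282 over 330 to 392 in leaf lines, and from 697 over 918 to 1283 in fruit controls and 1448 over 1718 to 1888 in fruit lines. The arrays of the groups did not overlap in either tissue. ETR2 fell 1.68-fold in leaf (−0.75 ± 0.13, adjusted p = 1.38e-04) and rose 1.77-fold in fruit (0.83 ± 0.11, adjusted p = 2.18e-06), with N6 and N7 at −0.89 and −0.62 in leaf and 0.81 and 0.85 in fruit.

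GPXle-2, named as a glutathione peroxidase, an enzyme that reduces peroxides, ran from 1877 over 2000 to 2287 in leaf controls and from 411 over 780 to 1096 in leaf lines. In fruit it ran from 1239 over 1644 to 2192 in controls and from 1866 over 2275 to 2703 in lines. The leaf groups stood apart and the fruit groups overlapped. The fall in leaf was 2.88-fold (−1.53 ± 0.17, adjusted p = 4.91e-07) and the rise in fruit 1.44-fold (0.52 ± 0.15, adjusted p = 0.00744). Among the 16 genes tested for peroxide scavenging and antioxidants, 4 fell in leaf and none rose there (7 and 1 at an unadjusted p under 0.05), and GPXle-2 was the one with an interaction call by limma, at −2.05.

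SlSSR1, a sterol side chain reductase, ran from 4101 over 4855 to 5176 in leaf controls and from 2088 over 3292 to 4054 in leaf lines. Its fruit controls ran from 1902 over 2431 to 2675 and its fruit lines from 2882 over 3195 to 3849. Again no line array fell among the controls in either tissue. The effects were −0.61 ± 0.11 (adjusted p = 2.93e-04) in leaf and 0.48 ± 0.10 (adjusted p = 3.34e-04) in fruit.

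app1 fell by 0.66 in leaf and rose by 0.78 in fruit, and the fruit rise was 1.01 without WT 3 (signal 951) and VC 4 (801), which were the highest fruit controls. PTPKIS1, a protein tyrosine phosphatase with a kinase interaction sequence, had effects of −0.89 and 0.72, Sip1 of −0.58 and 0.47 and CPA of −0.52 and 0.39. ARG1, arginase, which splits arginine into ornithine and urea, fell by 0.52 in leaf and rose by 0.36 in fruit, opposite to adc1, which uses the same amino acid. In fruit N7 against VC 1 to 3 the ARG1 effect was 0.26 (adjusted p = 0.28). These 5 genes kept both calls without any 1 array. With N6 as the only line, app1 (−0.50, adjusted p = 0.11) and ARG1 (−0.28, adjusted p = 0.26) lost the leaf call and CPA (0.20, adjusted p = 0.29) the fruit call.

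The other 4 named genes of this direction depended on single arrays or on 1 line. Nramp2, a metal transporter, rose 3.41-fold in fruit (1.77 ± 0.14), from a control range of 45.8 to 77.7 to a line range of 161 to 254, in both lines. In leaf it fell in N6 (−1.56, adjusted p = 2.7e-06) and was 0.42 in N7 (adjusted p = 0.19), and without leaf N6 1 the leaf call ended (−0.50, adjusted p = 0.052). ST3, of the nutrient transport list, fell in leaf in both lines (−1.34 and −1.06) while its fruit rise of 0.30 was −0.06 in N6 and 0.66 in N7. The fruit call of ST3 ended in 9 removals (0.27 to 0.31, adjusted p 0.052 to 0.081), and that of VPE5, a vacuolar processing enzyme with effects of −1.52 and 0.55, in 19 (0.49 to 0.58, adjusted p 0.050 to 0.095). The leaf fall of FDH, formate dehydrogenase, with effects of −0.70 and 0.99, ended in 6 (−0.69 to −0.60, adjusted p 0.053 to 0.10). In fruit N7 against VC 1 to 3 the effect of VPE5 was 0.71 (adjusted p = 0.115).

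In each direction, the largest interaction of an opposite probe set belonged to one with no gene name here. One rose by 4.05 in leaf and fell by 2.42 in fruit, and another fell by 2.90 in leaf and rose by 1.42 in fruit.

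Genes that changed alike included CIF1, an inhibitor of invertase, the enzyme that splits sucrose. CIF1 ran from 196 over 254 to 291 in leaf controls and from 816 over 1412 to 2166 in leaf lines, and from 355 over 466 to 780 in fruit controls and 1966 over 3086 to 4071 in fruit lines. The groups did not overlap in either tissue, which held for 14 of the 5597 probe sets with the same sign (0.25%). The rise was 5.56-fold in leaf (2.47 ± 0.18, adjusted p = 1.1e-09) and 6.39-fold in fruit (2.68 ± 0.16, adjusted p = 8.05e-13). The difference between the tissues was −0.20, with a 95% interval of −0.70 to 0.29 and an adjusted p of 0.58, which does not show that the rises were equal. CIF1 was the single gene that rose in leaf among the 15 tested for sugar use, of which 3 fell there, and 2 rose and 5 fell in fruit. These are 26.7% called in leaf and 46.7% in fruit, near the 22.5% and 40.9% of all named genes. hxk1, a hexokinase, fell in both, from 949 to 504 (medians) in leaf and from 215 to 134 in fruit, with no overlap. Its effects were −1.06 ± 0.19 and −0.82 ± 0.16, with a difference of −0.24 (95% interval −0.76 to 0.28).

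Xegip, an inhibitor of fungal xyloglucan endoglucanases, ran from 203 over 345 to 405 in leaf controls and 118 over 151 to 202 in leaf lines, and from 347 over 383 to 484 in fruit controls and 96.2 over 200 to 288 in fruit lines. No line array reached the controls in either tissue. It fell by 1.09 ± 0.14 in leaf (adjusted p = 3.16e-06) and by 1.12 ± 0.12 in fruit (adjusted p = 5.51e-08), a difference of 0.03 (95% interval −0.34 to 0.41). In fruit the fall was deeper in N7 (−1.68) than in N6 (−0.57). With fruit reduced to N7 against VC 1 to 3 the difference between the tissues was 0.79 (adjusted p = 0.019).

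The ethylene receptor gene ETR5 and the EIN3-like gene EIL1 rose in both tissues, in contrast to ETR2. ETR5 ran from 33.9 over 53.3 to 65.0 in leaf controls and 78.5 over 155 to 189 in leaf lines, and from 109 over 129 to 220 in fruit controls and 174 over 191 to 223 in fruit lines. The leaf groups were apart and the fruit groups overlapped through the highest control, VC 4. ETR5 rose by 1.35 ± 0.16 in leaf and 0.48 ± 0.14 in fruit, and the leaf rise was the larger by 0.87 (adjusted p = 0.00329). EIL1 rose by 0.96 ± 0.13 and 0.48 ± 0.11. Its interaction of 0.48 (adjusted p = 0.032) was lost without leaf WT 2, leaf VC 3 or leaf N7 2, at 0.44, 0.44 and 0.33, with adjusted p of 0.059, 0.060 and 0.059. DREB1, a transcription factor of dehydration responses, fell by 0.89 in leaf, where 5 of 6 line arrays were at the floor, and by 0.59 in fruit. In fruit N7 against VC 1 to 3 the effect of DREB1 was −0.31 (adjusted p = 0.31).

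The remaining alike genes passed by less, and leaving out single arrays ended a call of each. The jasmonate receptor gene COI1 had effects of 0.72 and 0.36, Eix1, a receptor for a fungal xylanase, 0.67 and 0.39, tft10, a 14-3-3 protein, 0.52 and 0.39, Rab1A, a small GTPase, 0.47 and 0.43, and LAT61 0.69 and 0.24. On the falling side were APX1, an ascorbate peroxidase, at −0.62 and −0.66, GPXle-1 at −0.25 and −0.21, and LTC at −0.30 and −0.23. The number of the 28 removals that ended the fruit call was 9 for COI1 (adjusted p up to 0.11), 19 for Eix1 (up to 0.11), 21 for LAT61 (up to 0.098) and 7 for tft10 (up to 0.072). Those that ended the leaf call numbered 7 for Rab1A (up to 0.12), 8 for APX1 (up to 0.083), 7 for tft10 (up to 0.11), 6 for GPXle-1 (up to 0.10) and 4 for LTC (up to 0.096). The tubulin gene TUB fell by 0.47 in leaf and by 2.95 in fruit, where the median was 83.3 in lines and 649 in controls, and 8 removals ended its leaf call (−0.50 to −0.40, adjusted p 0.063 to 0.12). Fruit N7 against VC 1 to 3 gave no call for COI1 (0.48, adjusted p = 0.0805), Eix1 (0.27, adjusted p = 0.352) or LAT61 (0.24, adjusted p = 0.222). The same held for tft10 (0.31, adjusted p = 0.229) and LTC (−0.23, adjusted p = 0.165). Without fruit WT 3 and VC 4 the fruit calls of LAT61 (0.23, adjusted p = 0.065) and Eix1 (0.37, adjusted p = 0.061) ended.

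**Figure D3:**
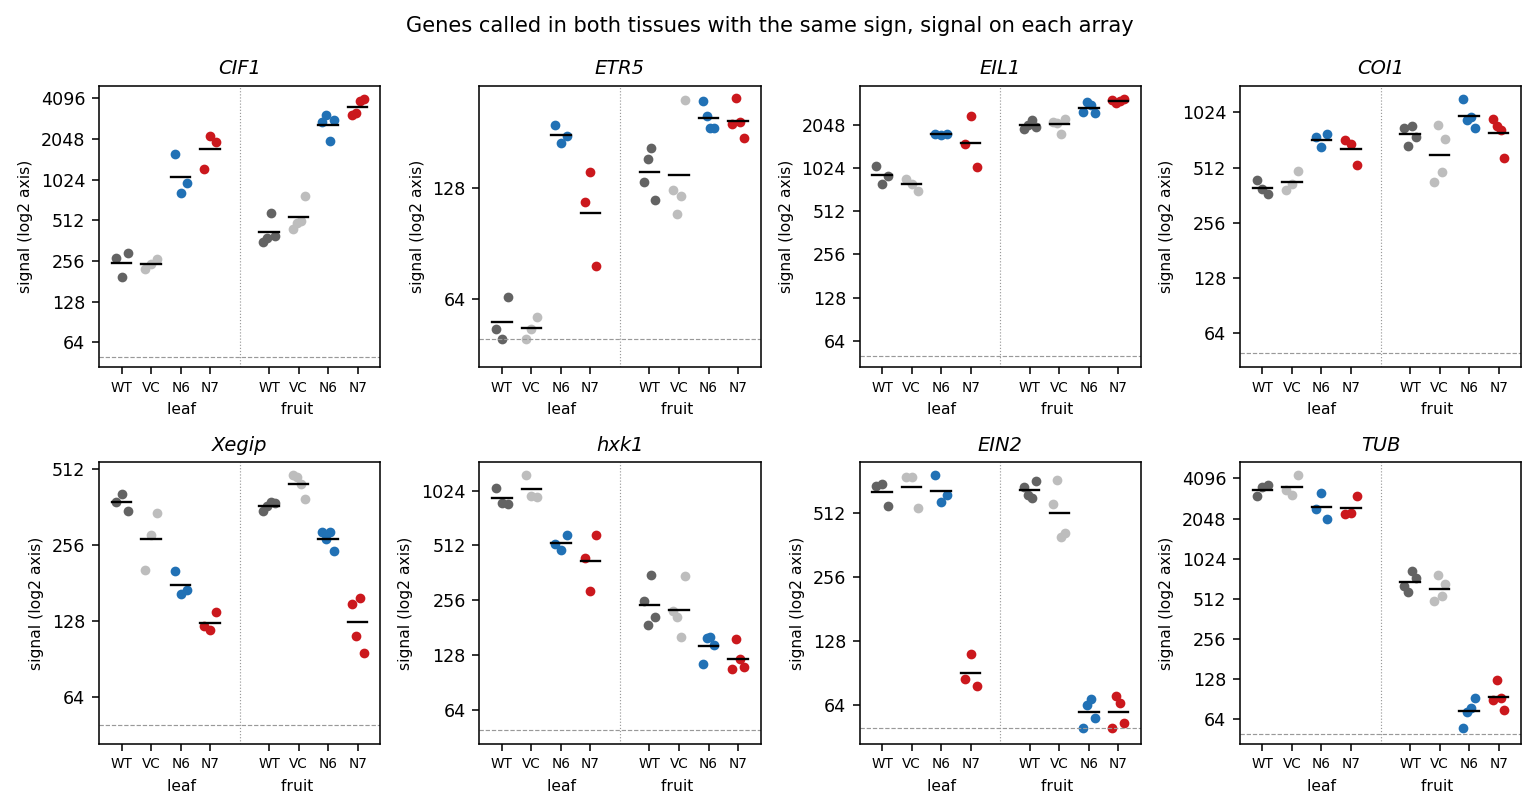
Log2 signal on every leaf and fruit array for 8 genes called in the same direction in both tissues, drawn as points with the mean of each group as a bar and the floor of 50 dashed. CIF1, Xegip and hxk1 show no overlap of lines and controls in either tissue, and EIN2 is low in leaf N7 and all fruit line arrays but not in leaf N6.

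EIN2 met the definition of an alike gene through 1 line in leaf. Its signals in leaf were 542 to 759.5 in the controls, 573 to 772 in N6 and 78.9 to 110 in N7. In fruit the controls ran from 395 over 614 to 731 and the lines from 32.7 over 59.7 to 70.6. Leaf N6 thus stood with the controls, and leaf N7 and both fruit lines stood far below. The leaf effect was −0.02 in N6 and −2.87 in N7, while the fruit effect was −3.29 in both. In root tips, 12 arrays that played no part in choosing the classes, EIN2 was −0.02 in N6 and −3.42 in N7. The root tip labels say etiolated while their growth text describes light.

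The root tips gave 22 calls among 5237 probe sets tested there too (0.42%), 7 higher (0.134%) and 15 lower (0.286%). Of the probe sets up in both leaf and fruit, 3 of 90 rose in root tips (3.33%), and of those down in both, 5 of 68 fell (7.35%). Of the opposite probe sets, 1 of 77 with a leaf rise fell there (1.3%) and 0 of 97 with a leaf fall were called by limma (1 higher and 4 lower at an unadjusted p under 0.05). In 6 of the 8 alike probe sets called in root tips, the pattern in leaf and fruit was that of EIN2: a change in leaf N7, with an adjusted p for leaf N6 above the threshold, and changes of nearly the same size in both fruit lines. Root tip N6 was not flat in all of them. In the 3 that rose it was 0.96, 0.66 and 0.80, against 1.51, 2.11 and 2.28 in root tip N7. The adjusted p for root tip N6 was 0.138, 0.344 and 0.156 by limma. One of them, with no gene name here, was 0.25 and −4.95 in leaf N6 and N7, −4.43 and −4.26 in fruit, and −0.26 and −4.37 in root tips. The other 2 of the 8 were lower in both lines in fruit and root tips and, in leaf, mainly in N6, at −1.31 and −0.29 for one and −1.28 and −0.18 for the other in N6 and N7. The reporter A06498 was also low in the fruit N6 arrays.

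**Figure D4:**
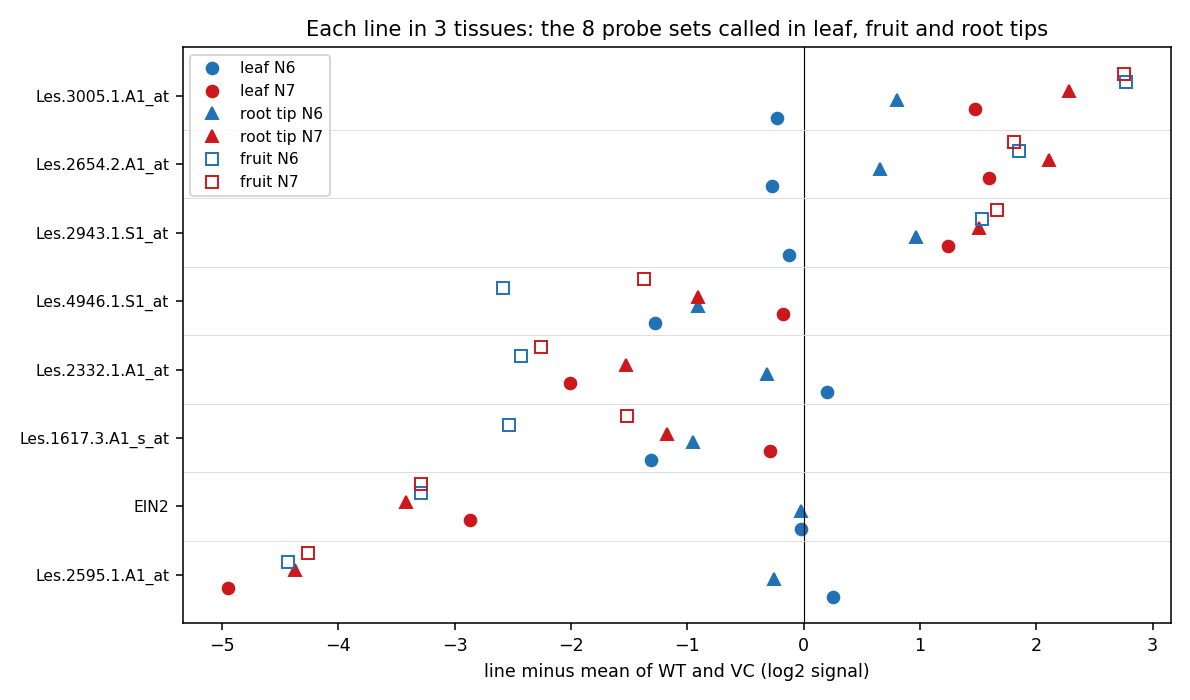
Log2 difference from the controls for N6 and N7 in leaf, fruit and root tips for the 8 probe sets called alike in leaf and fruit and also in root tips. For 6 of the 8, leaf N6 lies near 0 while leaf N7, root tip N7 and both fruit lines lie well away from it, as for EIN2 at −0.02, −2.87, −3.42 and −3.29. Root tip N6 lies at −0.02 for EIN2 but at 0.66 to 0.96 for the 3 probe sets that rose.

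Over the 440 named genes, 22.5% were called in leaf, 40.9% in fruit and 37.0% for the interaction, and the counts of the lists stand beside these shares. By direction, 58 rose and 41 fell in leaf, and 70 rose and 110 fell in fruit. The interaction was more positive in leaf for 111 and more positive in fruit for 52. The named genes as a whole thus leaned to falls in fruit and to interactions more positive in leaf, unlike all probe sets tested. In the ethylene pathway, of 19 tested, 7 rose and 2 fell in leaf, 5 rose and 3 fell in fruit, and the interaction was called for 9 more positive in leaf and 2 more positive in fruit. These are 47.4% in leaf, 42.1% in fruit and 57.9% for the interaction. The receptors differed from one another. ETR4 rose 8.51-fold in leaf, from a range of 71.0 over 79.4 to 124 in controls to 328 over 903 to 1200 in lines, with no overlap, while in fruit the medians were 3667 and 4057 (0.24, adjusted p = 0.22). ETR3 rose in leaf as well, by 0.91 with −0.06 in fruit, whereas ETR1 rose in fruit, by 0.72 with 0.09 in leaf, so of the 5 receptor genes 3 had larger effects in leaf, 1 had a larger effect in fruit and ETR2 reversed. ACO4, of the last enzyme of ethylene synthesis, fell 3.14-fold in fruit and had 0.44 in leaf (adjusted p = 0.098). The leaf effect of ACO4 was called without leaf N6 2 (0.55) or leaf N7 3 (0.54).

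The ethylene response factors and their DREB relatives, which bind DNA downstream of ethylene and drought, moved in leaf. Of 12 tested, 9 rose and 1 fell in leaf, against 1 and 2 in fruit, and 9 had an interaction more positive in leaf. Their median effect was 1.15 in leaf and −0.18 in fruit, beside −0.007 and −0.072 over the 440 named genes. erf1a ran from 37.7 over 46.1 to 80.8 in leaf controls and from 117 over 624 to 711 in leaf lines, a 7.65-fold rise with no overlap, in which 3 of 6 controls were counted at the floor. Its fruit medians were 50.8 and 84.3 (0.33, adjusted p = 0.43). ERF3 rose by at least 5.70-fold in leaf, where all 6 controls were at the floor, by 3.70 in N6 and 1.32 in N7 on the log2 scale, and had −0.73 in fruit (adjusted p = 0.055), and the fruit effect was called in 7 of the 28 removals of 1 array (−0.94 to −0.73). CBF1 fell by 2.67 in fruit and had 1.19 in leaf (adjusted p = 0.17, and 0.045 without fruit VC 4).

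Every call among the pathogenesis-related proteins had the sign of that of PR5 in the same tissue. Of 7 tested, 3 rose in leaf, 4 fell in fruit and none moved the other way at the threshold or at an unadjusted p under 0.05, and 6 had an interaction more positive in leaf, with medians of 0.91 and −0.81. NP24-I, an osmotin-like protein, rose 5.64-fold in leaf and had 0.35 in fruit (adjusted p = 0.30), while the chitinase CHI9 fell 2.81-fold in fruit and had 0.91 in leaf (adjusted p = 0.079, and called without leaf VC 3 at 1.102 or leaf N7 3 at 1.12). The kinases and 14-3-3 proteins of stress signalling had 6 of 15 higher in leaf, and 2 higher and 4 lower in fruit, which is 40.0% called in each tissue. MPK3, a MAP kinase induced in defence, rose 2.82-fold in leaf, by 2.72 in N6 with 0.26 in N7, and had −0.47 in fruit (adjusted p = 0.067), where all 8 line arrays were at the floor and 4 removals gave a call (−0.58 to −0.47).

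The photosynthesis apparatus and the heat shock proteins changed in fruit. Of 9 photosynthesis genes, 7 fell in fruit and 6 had a called interaction, with medians of −0.10 in leaf and −1.40 in fruit. By limma 0 of the 9 were called in leaf, and 1 was lower at an unadjusted p under 0.05. CAB4, a chlorophyll-binding protein, ran from 273 over 406 to 477 in fruit controls and 42.8 over 105 to 180 in fruit lines, which did not overlap, and had −0.08 in leaf (adjusted p = 0.81). Of 6 heat shock proteins and chaperones 4 fell in fruit and 1 rose in leaf. HSP21, a plastid small heat shock protein, fell 4.53-fold in fruit with a leaf effect of 0.07.

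Lipid-derived signals and metabolism gave tissue-specific calls in both directions. Among 10 genes of the wound, jasmonate and lipoxygenase list, 5 rose and 1 fell in fruit, and 2 rose and 1 fell in leaf. LOX1.1 rose 4.18-fold in fruit, from a median of 470 to 1795, with a leaf effect of −0.06. OPR3, which takes part in jasmonate synthesis, rose 2.02-fold in fruit (0.62 in N6 and 1.42 in N7) with a leaf effect of −0.35 (adjusted p = 0.16), and AOC, allene oxide cyclase of the same route, fell 2.32-fold in leaf with −0.09 in fruit (adjusted p = 0.65). In the carotenoid pathway Psy1, phytoene synthase, rose 2.07-fold in leaf, from a median of 128 to 236, and had −0.13 in fruit, where its medians were 7238 and 6354. CrtR-b1, a carotene hydroxylase, rose 3.38-fold in leaf with 0.05 in fruit. PTOX, the plastid terminal oxidase, fell in leaf by 1.58, where 5 of 6 line arrays were at the floor, and had 0.35 in fruit (adjusted p = 0.25, and 0.53 with a call without fruit WT 3). Of 8 genes for GABA and polyamines 6 fell in fruit, among them GABA-TP3, a GABA transaminase, which fell 3.78-fold with −0.05 in leaf.

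Of 8 genes for inositol phosphates and calcium, 2 rose in leaf, 1 rose and 1 fell in fruit, and 1 interaction was called in each direction. These are 25% in each comparison, against 22.5%, 40.9% and 37.0% of all named genes. ER66, which codes for a calmodulin-binding protein, rose by 0.75 in leaf with −0.06 in fruit (interaction adjusted p = 0.00578). IMP1, an inositol monophosphatase, rose by 0.46 in fruit (0.11 in N6 and 0.81 in N7) with −0.22 in leaf, and its interaction of −0.68 ended in 3 of the 28 removals (−0.62 to −0.59, adjusted p 0.051 to 0.057). The translation factors, dehydration genes, nutrient transporters and auxin genes gave 5, 9, 9 and 3 tested members. In these 4 lists the called interactions numbered 0, 2, 1 and 1 in the positive direction and 2, 1, 3 and 0 in the negative one.

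**Figure D5:**
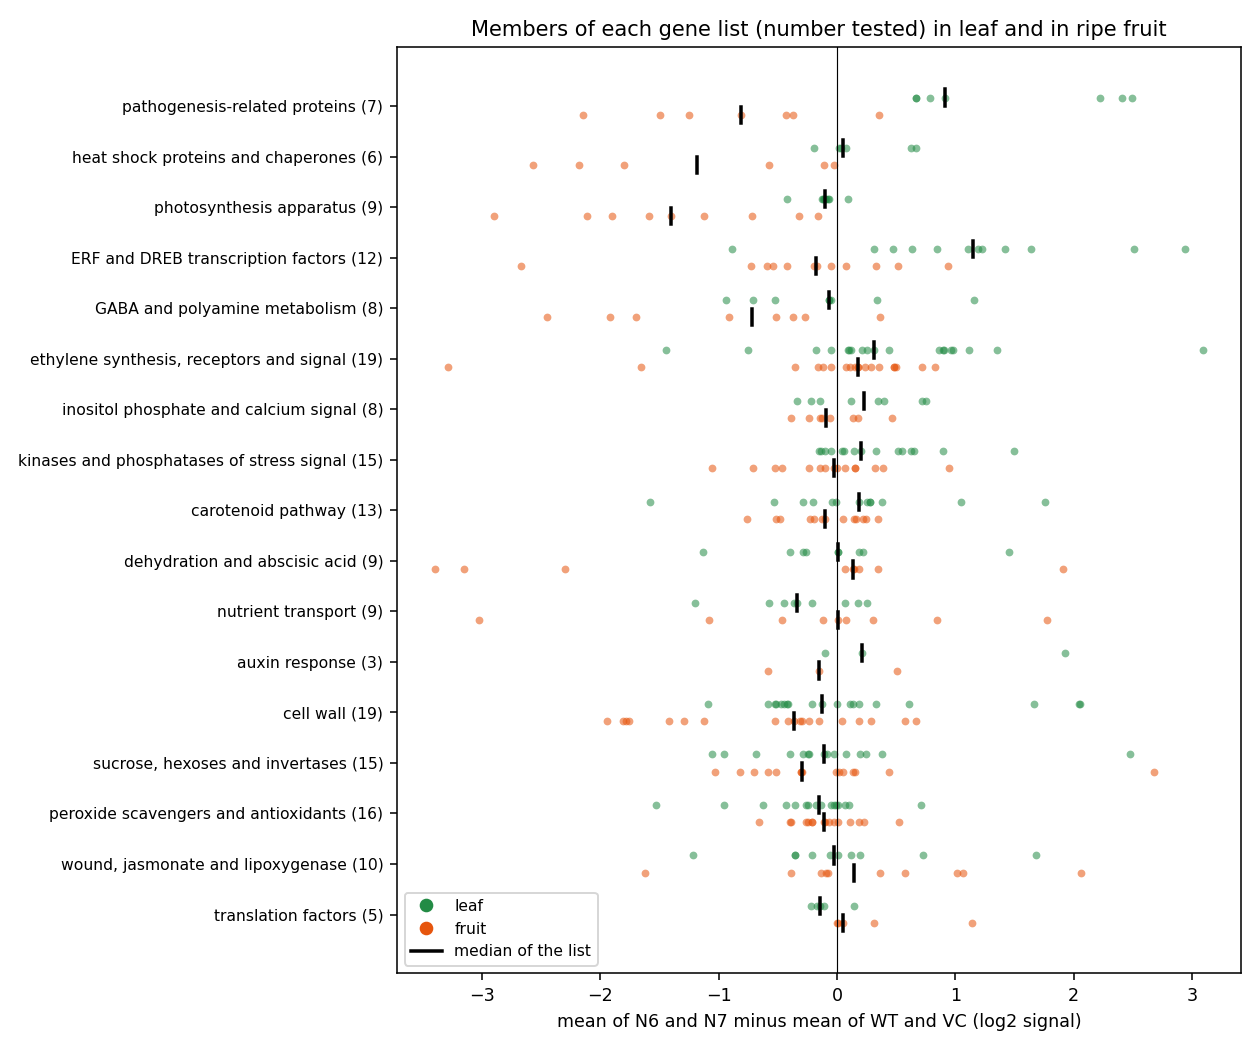
Effects of the lines on the log2 scale for the tested members of 17 gene lists, with leaf in green, fruit in orange and the median of each as a black bar. ERF and DREB factors lie to the right in leaf (median 1.15) and around 0 in fruit (−0.18), while photosynthesis genes lie near 0 in leaf (−0.10) and to the left in fruit (−1.40).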

How the data were processed

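The authors deposited, for each array, the scaled signal intensity per probe set of an Affymetrix tomato array, made from RNA labelled in 2 cycles, per the labels' protocols. GCOS is named in the submitters' processing notes, and its version is not given in the sources used here. Intensities were kept on the deposited scale, since the array means trimmed by 2% were alike, set to at least 50 and log2-transformed. Of 10209 probe sets, 108 controls and 63 reporters were left out and 5597 passed the filter. Gene names came from the platform annotation, in which 909 probe sets have 1 gene and 9129 have none. Of those 909, 885 matched the RefSeq annotation of assembly SLM_r2.1, whose coordinates are not used here.

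All 28 arrays entered 1 fit with 8 group means (limma 3.58.1, R 4.3.3, lmFit and eBayes with a mean-variance trend), followed by Benjamini-Hochberg adjustment over all 5597 probe sets. The fit was tested on simulated data. Within leaf and within fruit, replicate correlations were 0.950 to 0.992 and 0.876 to 0.993. No depth exists for arrays, and their number limits the precision. Deviations of same-numbered replicates had correlations of −0.42 to 0.27 over 18 leaf pairs (median −0.005, against 0.008 for other pairs). Over 24 fruit pairs they were −0.72 to 0.59 (median 0.056, against 0.011), and 11 of these exceeded 0.1. Numbers were not used as pairs in the main fit, and a fit with a replicate block is given below.

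The members and gene lists were chosen with earlier results of these data known. Genes are named by 1 rule. The brightest probe set stood for a gene, and up to 12 opposite genes per direction were taken by interaction size, up to 8 alike genes per direction by the smaller effect, and up to 5 genes per direction for changes in 1 tissue. Up to 4 more members were taken from each list by interaction p, and both lines had to lie beyond both controls, except for list members. ADC, ETR1, ETR3 and the unnamed probe sets were chosen after their values were seen. Alternatives covered floors, filters, scaling, array weights, the 3′/5′ ratio, single controls, single lines, doubted fruit arrays and each array left out. The root tip look-up and the contrast of VC with WT were added after seeing the data. The introduced gene was not analysed here.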

Additional observations from a re-analysis of the deposited data

Results flagged for a closer look

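In some fruit groups 1 array lay far from the other 3, in log2 signal. WT 3 and VC 4 did so most often: XTH3 was 7.48 in WT 3 and 7.67 in VC 4, DDTFR8 10.10 and 9.90, app1 9.89 and 9.65, LeXTH9 9.79 in WT 3 and tXET-B2 5.76 in VC 4. Among the lines the values were 12.97 for tft10 in N6 3, 12 for LTC in N7 3, 6.14 and 5.85 for PR5 in N6 3 and N7 2, 7.40 for adc1 in N6 1, 6.48 for vis1 in N7 4, 5.64 and 6.90 for THOM1 in N6 1 and N7 2, and 10.39 for DXS in N6 1. These are 17 of the 156 groups examined, where chance gives about 1 in 20. That rate does not apply where the other 3 arrays are all at the floor, as for PR5 and vis1 in N7. There any value above the floor is flagged. The groups come from the same arrays and are not independent.

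The leaf and fruit effects differed by the test of the interaction for 1477 probe sets, 190 of them with opposite signs. On the log2 scale the interaction was 4.56 for PR5, 3.99 for tXET-B2, 3.83 for XTH3, 3.60 for adc1, 3.23 for vis1, 2.96 for LeXTH9, 2.60 for DDTFR8, 2.25 for THOM1, 1.15 for MKK2, 0.86 for DXS and 0.79 for TFT7. In the other direction it was −0.89 for ARG1, −0.91 for CPA, −1.05 for Sip1, −1.09 for SlSSR1, −1.44 for app1, −1.50 for ST3, −1.58 for ETR2, −1.61 for PTPKIS1, −1.69 for FDH, −2.05 for GPXle-2, −2.07 for VPE5 and −2.34 for Nramp2.

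The interaction itself differed between N6 and N7 for 270 of the 5597 probe sets by limma, among them 28 of the 190 opposite and 17 of the 170 alike ones. It did so for 12 named genes. N6 minus N7 was 2.85 for EIN2, −0.52 for GPXle-1, 2.12 for TPSI1, 2.39 for CHI3, 0.95 for GABA-TP3, 1.04 for CAB4, 2.67 for TGAS118, 2.55 for ERF3, 2.46 for MPK3, −1.48 for SODCP.2, −2.77 for LeXTH9 and −2.15 for Nramp2.

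Control features outside the comparison carried signal above the level of other groups. The reporter A06498 reached 632 in leaf lines and 336 in fruit lines, and M62653 reached 5161 in fruit.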

How the results depend on the processing

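The main counts were 1477 interaction calls, 190 opposite and 170 alike probe sets, 865 calls in leaf and 2002 in fruit. Weighting each array raised them to 2887, 646, 1023, 2413 and 3711; the cause was not tested. With VC alone as control the interaction calls were 975, the opposite 92, the alike 75 and the leaf calls 496, and with WT alone 118 were opposite and 65 alike, in fits with fewer arrays. Line N7 alone gave 107 opposite and 88 alike probe sets. Without fruit WT 3 and VC 4 there were 332 opposite, 380 alike and 1318 leaf calls, and N7 against VC in both tissues without VC 4 gave 97, 104 and 573. Removing fruit WT 3 and VC 4 left the leaf effects unchanged and moved the leaf calls through the estimate of spread that both tissues share. Separate fits by tissue gave 204 opposite, 181 alike, 1032 leaf and 1796 fruit calls. Leaving out each array in turn gave 1330 to 1773 interaction calls, 147 to 246 opposite, 115 to 236 alike, 657 to 1010 leaf and 1771 to 2396 fruit calls. The replicate block within tissue gave 1367 interaction calls, 167 opposite and 136 alike probe sets, and the share of positive interactions was 50.4% against 44.8% after quantile normalization. Among single-gene values called with or without the change of setting, 4 turned sign, while values called in neither setting were not counted: the interaction of DREB1 at a floor of 100 (0.46, adjusted p = 0.013), the fruit effect of ST3 in N6 alone (−0.057), and the leaf effect of Nramp2 in N7 alone (0.42) and in N7 against VC (0.24). For all named genes, the removals of 1 array left 7945 values on their side of the threshold, put 64 past it, took 223 back and turned 0 called ones, and the other settings gave 4839, 120, 305 and 4. Signals near the floor limit every fold that touches it.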
